A study of Rattus norvegicus with 4 samples.

Results

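Mitotic genes were followed across the cell classes of rat blood after spinal cord injury. The 10 genes, chosen by symbol, were Mki67, Top2a, Cdk1, Cenpf, Ube2c, Nusap1, Tpx2, Cdkn3, Spc24 and Stmn1, and all 10 were present among the 25340 genes listed for each library (in that order ENSRNOG00000028137, ENSRNOG00000053047, ENSRNOG00000000632, ENSRNOG00000003388, ENSRNOG00000015131, ENSRNOG00000004921, ENSRNOG00000008165, ENSRNOG00000009785, ENSRNOG00000029862 and ENSRNOG00000016810). Cells about to divide duplicate their DNA in S phase, pass through G2 and then separate the copies on a microtubule spindle in M phase. The machinery of that separation is made anew in each cycle, so most transcripts of this kind are abundant in G2 and M phase and scarce in resting cells. Circulating lymphocytes are mostly at rest and divide after activation, whereas the red cells and reticulocytes of blood are past their last division.

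Single-cell RNA-seq of blood was available as 1 library from each of 4 groups of rats. The SCI group had a spinal cord injury made by Allen's method, a dropped weight. The MSC-i.t and MSC-i.v groups had the injury and umbilical cord mesenchymal stem cells, given on 2 occasions, 72 hours and 7 days after it, by the intrathecal route at 10000000 cells/kg (MSC-i.t) or the intravenous route at 30000000 cells/kg (MSC-i.v). The Sham group is labelled as sham, and the study's text counts it among the 40 injured rats, 10 in each group. Strain, sex, age, the species of the stem cells, when blood was taken and how many rats each library stands for are not given in the sources used here. The deposited SCI data bear a time tag unlike the tag on the remaining 3 libraries, so whatever that tag marks and the group cannot be told apart in any comparison with SCI.

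The libraries held 63133881 UMIs in SCI, 80115646 in MSC-i.t, 91124523 in MSC-i.v and 71648050 in Sham (UMIs, unique molecular identifiers, each stand for 1 captured RNA molecule). After removal of barcodes under 500 UMIs or under 200 genes, 8527 cells were kept in SCI, 11338 in MSC-i.t, 16998 in MSC-i.v and 10573 in Sham, with medians of 5719, 5407, 3764 and 4918 UMIs in that order. Between 0.882% and 1.26% of a library's barcodes also occurred in another library. Cells were sorted into classes by the UMIs of marker genes. There were 5538 T cells in SCI, 6872 in MSC-i.t, 8076 in MSC-i.v and 5327 in Sham, and 862, 1659, 2923 and 1681 B cells in the same order. NK cells numbered 145 in SCI, 158 in MSC-i.t, 279 in MSC-i.v and 225 in Sham. Monocytes numbered 261 to 1098 and erythroid cells 763 to 2396 per library, and precursor B cells only 3 to 21. The defining markers of NK, T and monocyte classes were high in them and low in the other classes. Many of these markers also set the gates, so this was largely fixed in advance and does not check the classes. NK markers summed to between 10927 and 11935 CPM (a gene's UMIs per 1000000 UMIs of the class) in NK cells and to 293 to 362 CPM in T cells. T markers summed to 144 to 147 CPM in NK cells. Gata1, an erythroid factor, had no UMI in any class, erythroid cells included. The other erythroid markers found, the factor Klf1 among them, all had UMIs in erythroid cells. The mature B cell genes Ms4a1 and Fcer2 had none in precursor B cells. B markers as a list still summed to 2799 to 6279 CPM in precursor B cells, against 6546 to 7111 CPM in B cells. With 1 library per group no test between groups is possible. All intervals are exact, at 95%, and cover nothing but counting error; ratios compare a pair of libraries, and the comparisons with SCI share that library.

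Promoter sequences were available for 8 of the 10 genes in RefSeq's annotation of assembly GRCr8; Ube2c and Tpx2 had no match. They are shown as background on the genes. Cell cycle promoters are known for CCAAT boxes, bound by the factor NF-Y, and for the CHR element, TTTGAA, through which the DREAM and B-MYB complexes act. Capitals mark every CCAAT (reverse strand ATTGG) and TTTGAA (reverse strand TTCAAA) in the 250 bases before the start of Mki67 (chr1:199952594-199952843, minus strand), Top2a (chr10:84473094-84473343, minus strand), Cdk1 (chr20:19265043-19265292, plus strand) and Stmn1 (chr5:151964929-151965178, plus strand).
Mki67: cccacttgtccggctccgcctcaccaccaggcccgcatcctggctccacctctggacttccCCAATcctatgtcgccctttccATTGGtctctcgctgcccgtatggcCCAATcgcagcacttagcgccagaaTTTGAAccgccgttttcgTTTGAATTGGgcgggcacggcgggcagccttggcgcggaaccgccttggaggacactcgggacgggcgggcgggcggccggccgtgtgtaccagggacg
Top2a: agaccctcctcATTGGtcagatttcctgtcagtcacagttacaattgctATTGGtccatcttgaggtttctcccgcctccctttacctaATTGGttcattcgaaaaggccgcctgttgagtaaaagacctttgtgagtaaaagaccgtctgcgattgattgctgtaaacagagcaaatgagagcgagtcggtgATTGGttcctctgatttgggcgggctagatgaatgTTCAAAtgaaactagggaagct
Cdk1: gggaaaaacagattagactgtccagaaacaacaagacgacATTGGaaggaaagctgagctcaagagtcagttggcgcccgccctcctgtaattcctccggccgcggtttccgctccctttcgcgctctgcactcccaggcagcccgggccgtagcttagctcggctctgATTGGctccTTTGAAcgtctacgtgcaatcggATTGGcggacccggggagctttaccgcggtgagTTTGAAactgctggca
Stmn1: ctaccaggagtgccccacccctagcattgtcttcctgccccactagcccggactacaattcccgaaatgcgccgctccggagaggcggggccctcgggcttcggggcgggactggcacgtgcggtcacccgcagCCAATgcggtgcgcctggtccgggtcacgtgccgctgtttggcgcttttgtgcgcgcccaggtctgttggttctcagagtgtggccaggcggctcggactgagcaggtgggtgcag
Within 300 bases (250 before the start and 50 after it), CCAAT on either strand was present in 8 of 8 member promoters, against 37.5% of 33469 rat promoters of that length. TTTGAA on either strand was present in 6 of 8, against 18.4%, and was missing from Spc24 and Stmn1. Both motifs together occurred in the same 6 and in 7.41% of all promoters. In Mki67 a CHR match and a reversed CCAAT overlap by 1 letter (TTTGAATTGG). Mki67 and Top2a each held 4 CCAAT matches and Stmn1 held 1. Of the E2F forms searched on both strands, TTTGGCGC was found in Stmn1 (0.493% of all promoters) and TTTCGCGC in Cdk1 (0.326%). These are matches of letters and do not show that a factor binds. Spc24, without TTTGAA, was among the members often found in the same T cells as Top2a. Whether a motif bears on the levels was not tested.

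Across the 6 classes, NK cells had the highest summed level of the 10 genes in each of the 4 libraries, with 619 CPM in SCI, 420 in MSC-i.t, 419 in MSC-i.v and 307 in Sham. T cells had 187, 184, 193 and 197 CPM in the same order of libraries, and B cells 202, 156, 152 and 165 CPM. Erythroid cells were lower, with 69.0 CPM in SCI, 87.8 in MSC-i.t, 103 in MSC-i.v and 88.6 in Sham. Monocytes were lowest, with 17.5, 52.9, 26.0 and 35.1 CPM. As means over libraries the order was NK cells (441 ± 130 CPM, SD, n = 4 libraries), precursor B cells (197 ± 65.5), T cells (190 ± 5.56), B cells (169 ± 23.0), erythroid cells (87.1 ± 14.0) and monocytes (32.9 ± 15.2). Levels in NK cells were above those of each other class in 4 of 4 libraries and the ranges did not overlap (exact two-sided sign-flip permutation test p = 0.13, the smallest that 4 libraries can give, and 0.17 after Benjamini-Hochberg adjustment over 15 pairs of classes). T, B and precursor B cells overlapped; T cells lay above B cells in 3 of 4 libraries (exact p = 0.25, adjusted 0.288). No pair of classes can pass 0.05 with 4 libraries.

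**Figure D1:**
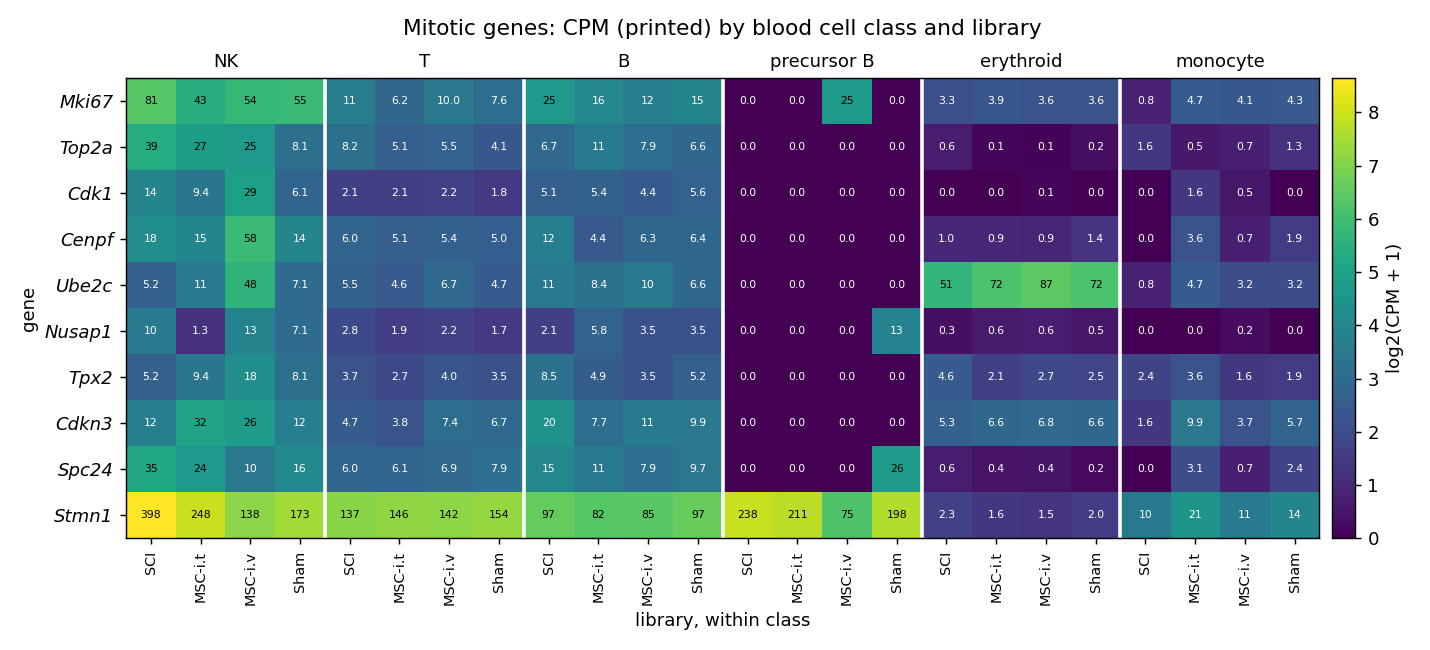
Level of each mitotic gene (rows) in each class and library (columns, SCI, MSC-i.t, MSC-i.v and Sham within each class). Colour is log2(CPM + 1) and the printed number is CPM. Stmn1 fills the bottom row in NK, T, B and precursor B cells and is near 0 in erythroid cells, where Ube2c (51.1 to 86.6 CPM) is the only high gene.

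The order rests in part on 2 genes with patterns of their own. Stmn1 encodes stathmin, which binds tubulin and takes microtubules apart, and it supplied most of the member UMIs in T cells (4755 of 6500 in SCI and 4362 of 5584 in Sham). Without it NK cells remained highest, with 222 CPM in SCI, 172 in MSC-i.t, 280 in MSC-i.v and 134 in Sham, but B cells (105, 74.2, 66.7 and 68.1 CPM) now lay above T cells (50.3, 37.7, 50.3 and 43.0 CPM) in 4 of 4 libraries (exact sign-flip permutation p = 0.13, adjusted 0.144). Erythroid cells, with 66.7 to 102 CPM, then also lay above T cells in 4 of 4 libraries and overlapped B cells (exact p = 0.75). When Ube2c was also left out, erythroid cells had 14.6 to 15.6 CPM and were below T cells (33.1 to 44.9 CPM) in every library.

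Cells with a UMI of at least 2 of the 10 genes were more frequent among NK cells than among T cells, B cells or monocytes in each library. They made up 13.8% of NK cells in SCI (20 of 145), 11.4% in MSC-i.t (18 of 158), 6.09% in MSC-i.v (17 of 279) and 6.67% in Sham (15 of 225). Among T cells they made up 2.87% in SCI, 2.40% in MSC-i.t, 1.97% in MSC-i.v and 2.68% in Sham, which is 143 to 165 cells per library. Among B cells the share was 2.20%, 1.15%, 0.889% and 1.49% in that order. In monocytes, which should hold few dividing cells in blood, it was 0 of 261 cells in SCI (a count of 0 allows a share of up to 1.15% by a floor of 3 counts and 1.40% by the exact interval), 0.532% in MSC-i.t, 1.18% in MSC-i.v and 1.33% in Sham, so that the B cell shares of MSC-i.v and Sham were near the monocyte level. Median UMIs per cell were 2003 to 3212 in B cells and 3328 to 4723 in monocytes, and the summed level of the genes was higher in B cells in all 4 libraries. Erythroid cells reached 6.55%, 8.42%, 5.68% and 8.67%, with medians of 8135 to 11880.5 UMIs per cell.

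Depth bears on these shares. Cells with at least 2 of the 10 genes had a median of 6783 UMIs among T cells, where all T cells together had 4931, and of 8219 among B cells, where all B cells had 2517. With every cell thinned to 1000 UMIs (0 to 112 shallower cells per class and library left out), NK cells held 4.14% in SCI, 3.87% in MSC-i.t, 2.22% in MSC-i.v and 3.20% in Sham. T cells then held 0.474%, 0.367%, 0.552% and 0.628%, B cells 0.833%, 0.309%, 0.385% and 0.490%, and monocytes 0 to 0.373%. Erythroid cells then held 0.262% in SCI, 0.430% in MSC-i.t, 0.167% in MSC-i.v and 0.286% in Sham, below B cells in 3 of 4 libraries. Their high share was thus not seen at 1000 UMIs in total. Hemoglobin counts toward that total, with medians of 49.4% to 54.2% of UMIs in erythroid cells. Depth for the other genes was therefore lower in erythroid cells than in leukocytes. NK cells were the highest class in each library at this depth.

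**Figure D2:**
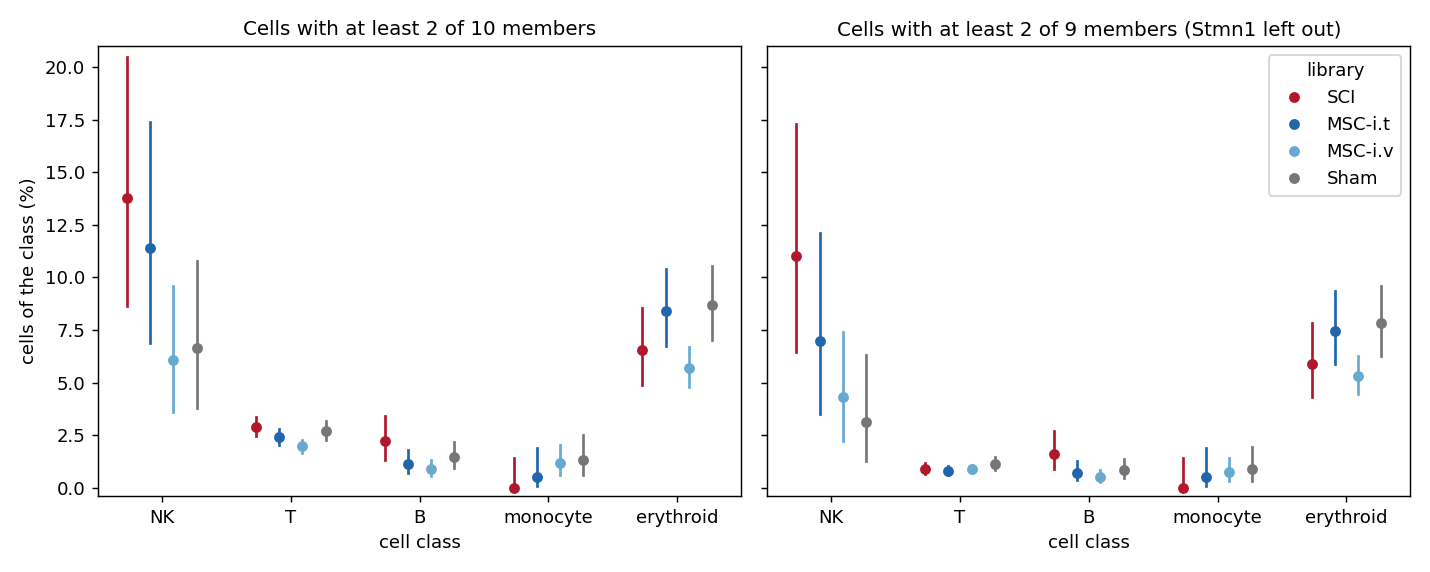
Share of cells (percent of the class, y axis) with a UMI of at least 2 of the 10 genes (left) and of at least 2 of the 9 genes other than Stmn1 (right), by class and library. Points are 1 library each and bars are exact 95% intervals for counting error; NK cells of SCI are highest at 13.8% (left) and 11% (right), and on the left their bar overlaps those of the other NK libraries.

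Within a class, the genes came together in a small set of cells. Of 25813 T cells, 28 held UMIs of all 10 genes, as did 3 of 807 NK cells and 7 of 7125 B cells. At least 5 of the 10 were found in 120 T cells (0.465%), 20 NK cells (2.48%), 35 B cells (0.491%), 4 monocytes and none of 5147 erythroid cells. Few cells therefore carry the summed levels: of the UMIs of the 9 genes other than Stmn1, at least 50% lay in 6 to 13 T cells per library, in 2 or 3 NK cells and in 2 to 5 B cells. A single cell held 37.9% of these UMIs in NK cells of SCI, 35.2% in MSC-i.t, 29.5% in MSC-i.v and 19.5% in Sham. The counting intervals of CPM treat UMIs as independent and are for this reason too narrow. The median was 14503.5 UMIs in the T cells with all 10 genes, against 4931 in all T cells. Leaving out the 5% of barcodes with the highest doublet scores moved none of 24 ratios of the summed level by more than its counting interval allows.

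Top2a, the topoisomerase that untangles sister chromatids, marked such cells well. Over the 4 libraries 120 T cells had a Top2a UMI, and 62.5% of them (53.2 to 71.2) also had one of Mki67, the Ki-67 protein that coats mitotic chromosomes, where 0.965% of the other T cells did. The share was 52.9% in SCI, 60.9% in MSC-i.t, 71.1% in MSC-i.v and 64.0% in Sham, so it was high in each library. Cdk1, the kinase that drives entry into mitosis, was found in 45.8% of the Top2a-positive T cells and 0.222% of the rest. Spc24, a subunit of the NDC80 complex that ties kinetochores to microtubules, was in 58.3% and 1.93%. Stmn1 was in 80.0% of them but also in 35.8% of the other T cells, so it separated them least. NK and B cells showed the same pairing: 14 of 19 Top2a-positive NK cells and 22 of 30 such B cells had Mki67.

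**Figure D3:**
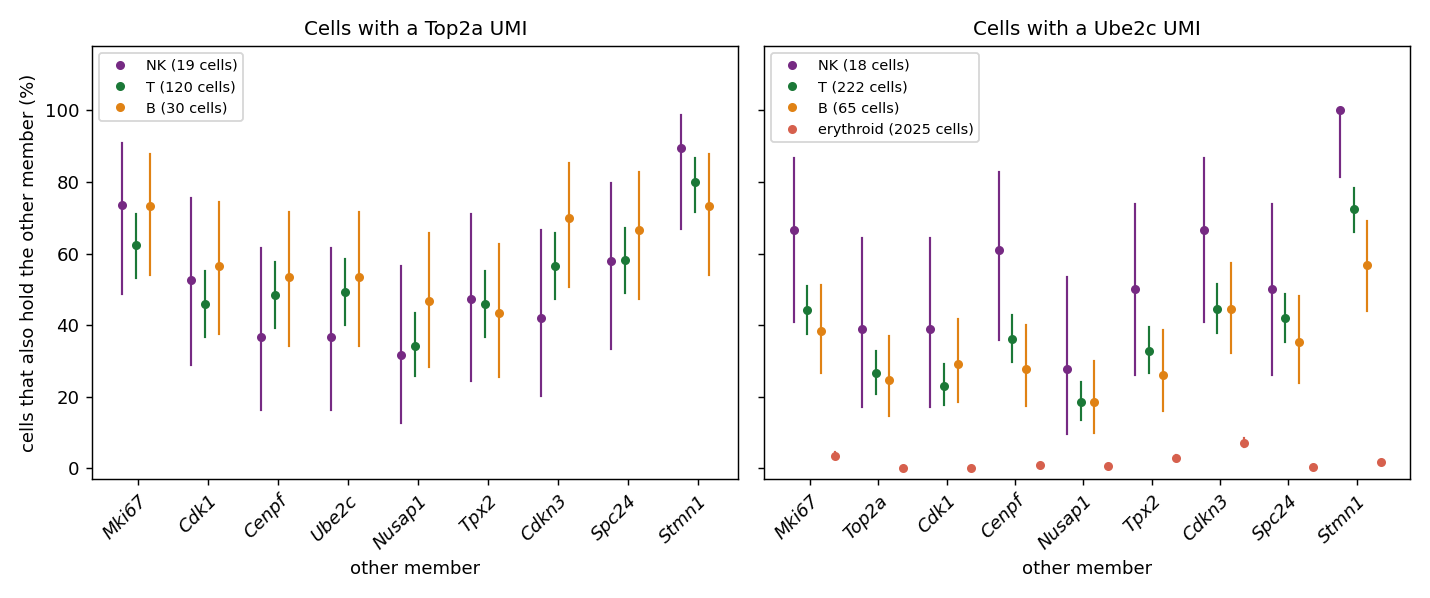
Percent of cells with a Top2a UMI (left) or a Ube2c UMI (right) that also held each other member (x axis), over the 4 libraries together, by class, with exact 95% intervals. In NK, T and B cells each other member is found in 18.5% to 100% of such cells; in the 2025 erythroid cells with Ube2c no other member exceeds 7.16%.

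Ube2c, the ubiquitin-conjugating enzyme that works with the anaphase-promoting complex, was the exception in erythroid cells. Its level there was 51.1 CPM in SCI, 71.6 in MSC-i.t, 86.6 in MSC-i.v and 71.5 in Sham, with UMIs in 31.1%, 43.6%, 39.6% and 41.0% of the cells. In T cells it was 4.56 to 6.70 CPM and in monocytes 0.794 to 4.67 CPM, so erythroid cells were far above both in every library. RNA outside cells, read from barcodes under 100 UMIs, held 9.87 CPM of Ube2c in SCI, 13.2 in MSC-i.t, 23.4 in MSC-i.v and 13.3 in Sham. Most other mitotic genes were rare beside it. Cdk1 had 2 UMIs in all erythroid cells, both in MSC-i.v, and Top2a had 4 in SCI, 1 in MSC-i.t, 1 in MSC-i.v and 3 in Sham. Of 2025 erythroid cells with Ube2c, 3.56% had Mki67, against 2.95% of those without; in T cells the shares were 44.1% and 0.879%. Cdkn3 was somewhat more frequent in erythroid cells with Ube2c than in those without in each library, with 5.49% against 3.99% in SCI, 8.56% against 5.86% in MSC-i.t, 5.91% against 4.63% in MSC-i.v and 9.51% against 5.49% in Sham. It was found in 4.46% to 7.14% of all erythroid cells and in 0.815% to 1.12% of T cells. Its CPM overlapped, however, with 5.30 to 6.82 in erythroid cells and 3.78 to 7.42 in T cells. Stmn1 was at 1.46 to 2.29 CPM in erythroid cells, below its 80.1 to 113 CPM in the RNA outside cells.

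Among erythroid cells, Ube2c was not confined to those poorest in hemoglobin. In MSC-i.v it had 77.2 CPM in cells with 20 to 50% of their UMIs from hemoglobin genes, 77.5 CPM at 50 to 60% and 139 CPM above 60%. In Sham the values were 73.0, 75.0 and 56.4 CPM, in SCI 53.7, 46.5 and 55.0 CPM, and in MSC-i.t 72.6, 70.6 and 79.1 CPM. Hemoglobin took up a median of 49.4% to 54.2% of the UMIs of these cells. With those UMIs left out of the total, Ube2c had 101, 97.1 and 178 CPM for SCI from the lowest to the highest bin of hemoglobin. It had 139, 151 and 258 CPM for MSC-i.t, 148, 169 and 443 CPM for MSC-i.v and 141, 163 and 182 CPM for Sham. This step raises the bins richest in hemoglobin most, by construction. That the last bin was highest in each library on this scale is therefore not read as a result. On the same scale the summed level of the 10 genes was 139 CPM in SCI, 187 in MSC-i.t, 233 in MSC-i.v and 202 in Sham, above that of B cells in 3 of 4 libraries. The next highest members in erythroid cells were Cdkn3, a phosphatase of cyclin-dependent kinases (5.30 to 6.82 CPM), Mki67 (3.29 to 3.91 CPM) and Tpx2, a spindle assembly factor (2.14 to 4.58 CPM). Cenpf, Nusap1 and Spc24 were each below 1.5 CPM.

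Precursor B cells, defined by at least 3 UMIs of Igll1, Rag1 and Dntt (surrogate light chain and recombination genes), held Stmn1 and almost none of the rest. The 48 cells of the 4 libraries had 29 Stmn1 UMIs, which is 175 CPM (117 to 251), beside 80.1 to 113 CPM in RNA outside cells. They had 4 UMIs of the other 9 genes together, 24.1 CPM (6.57 to 61.7), of which 1 was of Mki67, in MSC-i.v. Among the 48, 2 cells (4.17%, 0.509 to 14.3) had at least 2 members, both from Sham. Without the limit on UMIs of other classes, 74 cells met the rule, and 22 of them carried at least 2 UMIs of T cell genes. These 74 had 15 UMIs of the other 9 genes (41.7 CPM, 23.3 to 68.7), 14 of them in Sham (67.1 CPM), and 4 cells with at least 2 members.

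Shares also differed between subsets of T cells. T cells with a UMI of Foxp3, the factor of regulatory T cells, had at least 2 of the 9 genes other than Stmn1 in 7 of 91 cells in SCI (7.69%), 2 of 134 in MSC-i.t (1.49%), 15 of 192 in MSC-i.v (7.81%) and 13 of 140 in Sham (9.29%). The MSC-i.t library was the low one, with an interval of 0.181% to 5.29%. Their level of the 9 genes was 861 CPM in SCI, 42.3 in MSC-i.t, 654 in MSC-i.v and 398 in Sham. T cells with Cd4 and neither Foxp3 nor Cd8 genes had shares of 0.786% to 1.25%, and those with Cd8 and neither Foxp3 nor Cd4 0.805% to 1.05%. T cells with at least 3 UMIs of NK markers had shares of 4.19% in SCI, 4.52% in MSC-i.t, 6.31% in MSC-i.v and 4.82% in Sham, and T cells with fewer 0.785%, 0.610%, 0.726% and 0.961%. Depth differed too. T cells with at least 3 NK marker UMIs had medians of 7624 UMIs in SCI, 7464 in MSC-i.t, 4886 in MSC-i.v and 6590.5 in Sham. Those with fewer had 5928, 5564, 3673 and 5012, and the part of depth in the shares was not tested. The division into subsets was made after values were seen and rests on single UMIs of marker genes.

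B cells with plasma cell genes carried much of the B cell signal. Those with at least 3 UMIs of Jchain, Mzb1 and Tnfrsf17, genes of antibody secretion and plasma cell survival, had at least 2 of the 9 genes in 7 of 50 cells in SCI (14.0%), 8 of 70 in MSC-i.t (11.4%), 10 of 70 in MSC-i.v (14.3%) and 7 of 111 in Sham (6.31%). The remaining B cells had shares of 0.862%, 0.252%, 0.175% and 0.446% in the same order, below the plasma group in each library. In CPM of the 9 genes, the plasma group had 303 in SCI, 593 in MSC-i.t, 600 in MSC-i.v and 228 in Sham, and the rest 70.2, 13.6, 25.4 and 46.6. Their share of all B cell UMIs of the 9 genes was 43.4% in SCI, 83.5% in MSC-i.t, 64.7% in MSC-i.v and 39.6% in Sham. Depth also differed, with medians of 6413, 6580.5, 6217 and 2962 UMIs in the plasma group against 3190, 2932, 1994 and 2650 in the rest, and its part in the shares was not tested.

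**Figure D4:**
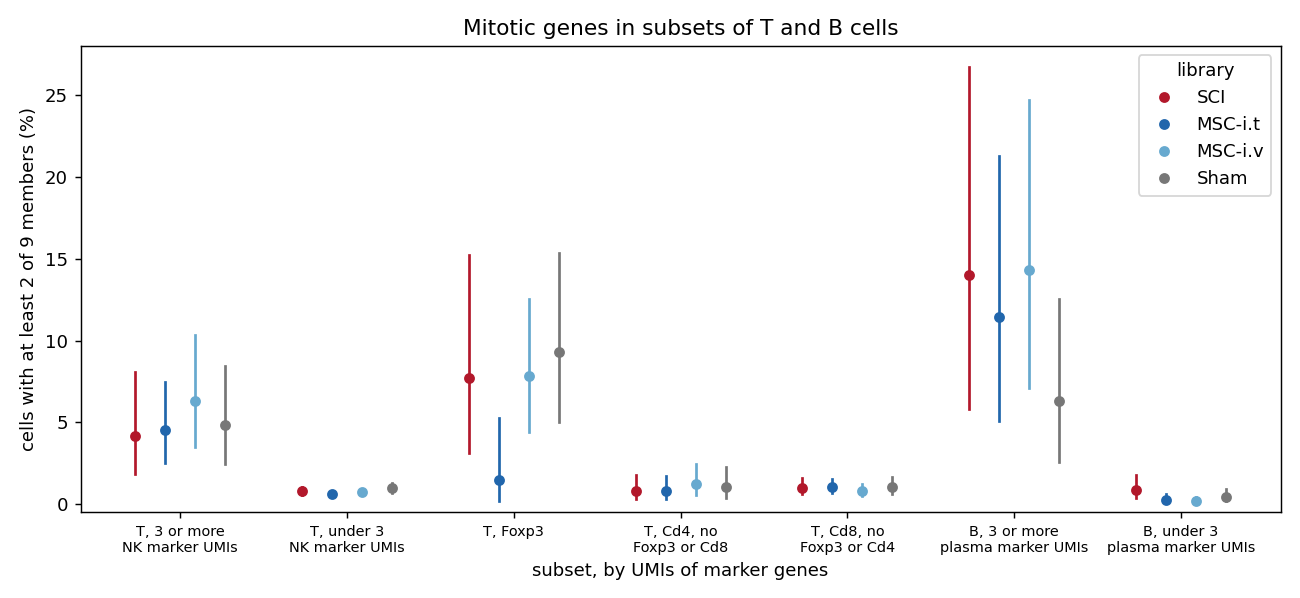
Percent of cells (y axis) with at least 2 of the 9 genes other than Stmn1 in subsets of T and B cells (x axis), by library, with exact 95% intervals. Foxp3-positive T cells (1.49% to 9.29%), T cells with NK markers (4.19% to 6.31%) and B cells with plasma cell markers (6.31% to 14.3%) are shown beside T cells with under 3 UMIs of NK markers (0.610% to 0.961%), which include Foxp3-positive cells, and the remaining B cells (0.175% to 0.862%); the interval of Foxp3-positive T cells of MSC-i.t (0.181 to 5.29) reaches down to these T cells.

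Among NK, T and B cells, the summed level differed most between libraries in NK cells. Monocytes (17.5 to 52.9 CPM, from 22 to 130 UMIs) and precursor B cells (101 to 238 CPM, from 3 to 18 UMIs) spread more widely as ratios but on few UMIs, and the 52.9 CPM of monocytes in MSC-i.t were 28.7 CPM without their top cell. In NK cells Stmn1 had 398 CPM in SCI, 248 in MSC-i.t, 138 in MSC-i.v and 173 in Sham, so SCI was highest and MSC-i.v lowest. Mki67 had 81.3 CPM in SCI, 43.0 in MSC-i.t, 53.6 in MSC-i.v and 55.5 in Sham, and Top2a 39.4, 26.9, 24.6 and 8.07 CPM; SCI was again highest. Top2a UMIs came from 8 cells in SCI, 3 in MSC-i.t, 4 in MSC-i.v and 4 in Sham. Cenpf, a kinetochore protein, was instead highest in MSC-i.v, with 18.4 CPM in SCI, 14.8 in MSC-i.t, 58.0 in MSC-i.v and 14.1 in Sham. So was Ube2c, with 5.25, 10.7, 48.0 and 7.06 CPM, the 43 UMIs of MSC-i.v lying in 5 cells. Cdk1 was highest in MSC-i.v as well, with 14.4, 9.40, 29.0 and 6.05 CPM. Spc24 ran the other way, with 35.4 CPM in SCI, 24.2 in MSC-i.t, 10.0 in MSC-i.v and 16.1 in Sham. Cdkn3 was highest in MSC-i.t, with 11.8, 32.2, 25.7 and 12.1 CPM. Nusap1 and Tpx2 rested on 1 to 16 UMIs per library and lay between 1.34 and 17.9 CPM.

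T cells were far more even. Stmn1 had 137 CPM in SCI, 146 in MSC-i.t, 142 in MSC-i.v and 154 in Sham, with UMIs in 38.3%, 41.3%, 29.8% and 36.3% of T cells, so SCI was lowest by a small margin. Mki67 had 11.4 CPM in SCI, 6.19 in MSC-i.t, 9.98 in MSC-i.v and 7.64 in Sham, and Top2a 8.22, 5.14, 5.54 and 4.12 CPM; both were highest in SCI. Spc24 was lowest there, with 5.97, 6.06, 6.89 and 7.89 CPM. In B cells Mki67 had 24.8 CPM in SCI, 15.7 in MSC-i.t, 11.6 in MSC-i.v and 14.6 in Sham, from 22, 11, 24 and 23 cells. Cdkn3 in B cells had 20.0, 7.68, 11.2 and 9.89 CPM, again with SCI highest, and Stmn1 96.8, 81.5, 85.2 and 97.4 CPM, with SCI and Sham close. RNA outside cells held Stmn1 at a similar level (113 CPM in SCI, 92.3 in MSC-i.t, 85.4 in MSC-i.v and 80.1 in Sham). How much of the Stmn1 in B cells came from that RNA was not tested. Monocytes held 10.3 to 21.3 CPM of Stmn1, below that level, and T cells were above it in each library.

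For SCI over Sham, the summed level of the 10 genes in NK cells had a log2 ratio of 1.01 (0.80 to 1.23), of 0.72 without Stmn1 and of 0.39 in NK cells with no UMI of other classes' gate genes. The share of NK cells with at least 2 members had a log2 ratio of 1.05 (0.01 to 2.12). Of 6 members with at least 20 UMIs in the pair of libraries, 3 were past 2-fold, all higher in SCI: Top2a (log2 ratio 2.29, 1.13 to 3.62), Stmn1 (1.2, 0.93 to 1.48) and Spc24 (1.13, 0.19 to 2.12). Of all genes so counted in NK cells 8.64% were past 2-fold in either direction, and their median log2 ratio was 0.09, against 0.84 for the 6 members. Mki67 was at 0.55 (0.00 to 1.1), Cenpf at 0.38 and Cdkn3 at -0.04, with intervals that reach 0. With a minimum of 50 UMIs, 2 members remained and 1 was past 2-fold.

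In T cells, no member was past 2-fold for SCI over Sham, where 7.93% of genes were. Top2a was just inside the limit (8.22 CPM in the SCI library and 4.12 CPM in Sham; log2 ratio 1.00, 0.68 to 1.32, or 1.995-fold), with 34 positive cells in SCI and 25 in Sham. Nusap1, which bundles spindle microtubules, had 2.83 CPM in T cells of SCI and 1.69 CPM in those of Sham (log2 ratio 0.74, 0.23 to 1.27), and Mki67 11.4 CPM and 7.64 CPM (0.58, 0.33 to 0.82). Cdkn3 and Spc24 were lower in SCI, with log2 ratios of -0.51 and -0.40, and Stmn1 was at -0.16. The summed level had a log2 ratio of -0.07 with Stmn1 and of 0.23 (0.12 to 0.33) without it, so its sign depended on that gene. The share of cells with at least 2 members had a log2 ratio of 0.10 (-0.24 to 0.43).

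In B cells, 1 of 10 members was past 2-fold for SCI over Sham, where 7.07% of genes were. It was Cdkn3, with 20.0 CPM in B cells of SCI and 9.89 CPM in those of Sham (log2 ratio 1.01, 0.46 to 1.57), and it was no longer past the limit once ratios were centred on the median of all genes. Cenpf (0.88), Mki67 (0.77), Ube2c (0.72) and Spc24 (0.67) were also higher in SCI, with intervals above 0, while Stmn1 was level at -0.01. The summed level had a log2 ratio of 0.29 (0.14 to 0.44), from 668 member UMIs in SCI and 853 in Sham. In erythroid cells none of 6 members was past 2-fold, where 15.2% of genes were; Ube2c was lower in SCI (log2 ratio -0.49, -0.67 to -0.31) and Tpx2 higher (0.89, 0.13 to 1.65).

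**Figure D5:**
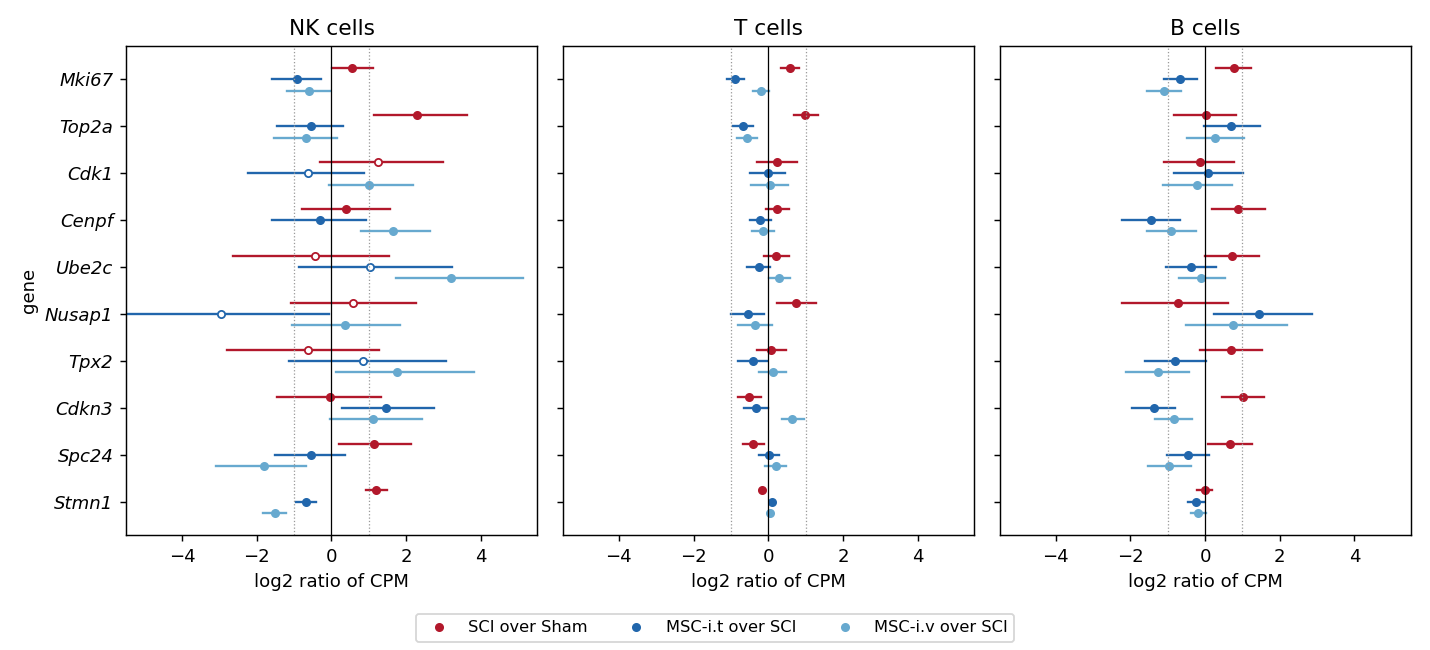
Log2 ratio of CPM (x axis) of each gene for SCI over Sham, MSC-i.t over SCI and MSC-i.v over SCI in NK, T and B cells, with exact 95% intervals for counting error. Open circles mark genes with under 20 UMIs in the pair of libraries and dotted lines mark 2-fold; in T cells no point passes a dotted line, while in NK cells Ube2c reaches 3.19 and Stmn1 -1.52 for MSC-i.v over SCI.

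For MSC-i.t over SCI, the summed level in NK cells had a log2 ratio of -0.56 (-0.77 to -0.35), and of -0.23 in NK cells with no UMI of other classes' gate genes. Of 6 countable members 1 was past 2-fold, where 8.93% of genes were: Cdkn3, higher in MSC-i.t with 24 UMIs against 9 in SCI (log2 ratio 1.45, 0.29 to 2.74). Stmn1 (-0.68) and Mki67 (-0.92) were lower in MSC-i.t with intervals below 0. T cells had no member past 2-fold, where 7.61% of genes were, and the lowest was Mki67, with 6.19 CPM in MSC-i.t, against 11.4 CPM for SCI (log2 ratio -0.88, -1.11 to -0.65). Without Stmn1 the summed level in T cells had a log2 ratio of -0.42 (-0.52 to -0.32), and of -0.03 with it. B cells had 3 of 10 members past 2-fold, where 7.59% of genes were. These were Cenpf (-1.44, from 3 cells in MSC-i.t and 11 in SCI) and Cdkn3 (-1.38) on the lower side and Nusap1 (1.44, from 4 cells in each) on the higher. Among erythroid cells 1 of 5 countable members, Tpx2 at -1.10, was past 2-fold, where 15.8% of genes were.

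For MSC-i.v over SCI, members of NK cells differed in direction. Of 10 members 7 were past 2-fold, where 9.34% of genes were. Higher in MSC-i.v were Ube2c (log2 ratio 3.19, 1.73 to 5.13), Tpx2 (1.77), Cenpf (1.66), Cdkn3 (1.12) and Cdk1 (1.01), and lower were Spc24 (-1.82) and Stmn1 (-1.52, -1.84 to -1.22). The summed level had a log2 ratio of -0.57 (-0.76 to -0.37) with Stmn1 and of 0.34 (0.05 to 0.63) without it. Only 17 NK cells of MSC-i.v had at least 2 members, and 2 cells held at least 50% of the UMIs of the 9 genes, so these ratios describe few cells. With a minimum of 50 UMIs, 2 of 4 members were past 2-fold. T cells had no member past 2-fold, where 7.45% of genes were, with Cdkn3 highest (0.65, 0.36 to 0.95) and Top2a lowest (-0.57, -0.85 to -0.29). Their share of cells with at least 2 members had a log2 ratio of -0.54 (-0.87 to -0.22), but of 0.22 after thinning to 1000 UMIs, where the median was 3700 UMIs in MSC-i.v and 5975 in SCI. B cells had 2 of 10 members past 2-fold, both lower in MSC-i.v, where 7.19% of genes were: Tpx2 (-1.26) and Mki67 (-1.09, with 11.6 CPM in MSC-i.v, against 24.8 CPM for SCI). Of 6 countable members in erythroid cells none was past 2-fold, where 12.3% of genes were, and Ube2c was at 0.76 (0.60 to 0.93).

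For MSC-i.t over MSC-i.v, the direct comparison of the routes, the summed level had log2 ratios of 0.01 in NK cells, -0.07 in T cells and 0.04 in B cells. NK cells had 4 of 9 countable members past 2-fold, where 4.26% of genes were: Ube2c (-2.16), Cenpf (-1.97) and Cdk1 (-1.63) lower in MSC-i.t and Spc24 (1.27) higher. Without Stmn1 the summed level of NK cells was at -0.70 (-1.02 to -0.39). None of 10 members was past 2-fold in T cells, where 3.29% of genes were, with Cdkn3 (-0.97, -1.27 to -0.67) and Mki67 (-0.69, -0.93 to -0.45) lowest. None of 10 was in B cells, where 2.54% of genes were, and none of 6 in erythroid cells, where 10.9% were. The route and dose of the cells differ together in this pair and cannot be told apart.

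Genes of the steps before mitosis were read from lists of the same pathway. The list of DNA replication and S phase genes, 53 of 54 found, summed to 2307 CPM in NK cells of SCI, 1246 in MSC-i.t, 940 in MSC-i.v and 963 in Sham. For SCI over Sham 34 of its genes were countable, all 34 were higher in SCI and 23 were past 2-fold, where 8.64% of all genes were past 2-fold; the median log2 ratio was 1.16. Lig1, the DNA ligase of replication, was at 2.27 and Gmnn, the licensing inhibitor geminin, at 2.10, while the clamp loader subunits Rfc2 (0.65) and Rfc4 (0.60) were lowest among the well-counted ones. Against SCI, 16 of 33 were past 2-fold and lower in MSC-i.t (median -0.98), where 8.93% of all genes were past 2-fold in either direction, and 27 of 34 in MSC-i.v (median -1.43), where 9.34% were. Without the cells that had at least 2 members, the list still summed to 1274 CPM in SCI, 841 in MSC-i.t, 815 in MSC-i.v and 714 in Sham. In MSC-i.v, then, S phase genes of NK cells were near the Sham level, while Ube2c, Cenpf and Cdk1 were above it (log2 ratios of 2.76, 2.04 and 2.26 over Sham). Top2a, Cdkn3 and Tpx2 were also above the Sham level, with 22, 23 and 16 UMIs in MSC-i.v against 8, 12 and 8 in Sham. Of 9 countable members 6 were past 2-fold, all higher in MSC-i.v. The share of all genes past 2-fold was not counted for this pair. Mki67 was near the Sham level, and Spc24 and Stmn1 were below it. These ratios rest on few cells, with the 43 Ube2c UMIs of MSC-i.v in 5 NK cells.

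The other G2 and M phase genes, 51 of 52 found, were mostly too sparse in NK cells. For SCI over Sham 14 were countable and 6 were past 2-fold, all higher in SCI, where 8.64% of all genes were past 2-fold. The median log2 ratio of the 14 was 0.86. The condensin subunits Smc2 (1.5) and Smc4 (0.68) were the well-counted ones. In T cells 1 of 48 was past 2-fold, a smaller share than the 7.93% of all genes, with Sgo2, a protector of centromeric cohesion, at 0.91 and Aspm, a spindle pole protein, at 0.82, and with the kinetochore genes Cenpw (-0.57) and Spc25 (-0.59) lowest. The S phase list of T cells had 1 of 50 past 2-fold, E2f1 at 1.33, also under that share. In B cells 2 of 33 G2 and M phase genes and 3 of 46 S phase genes were past 2-fold, no larger a share than the 7.07% of all genes.

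The summed level of genes that hold back the cycle was highest in the SCI library, through a few genes. The list of brakes, 23 of 24 found, summed to 2595 CPM in T cells of SCI, 1635 in MSC-i.t, 1641 in MSC-i.v and 1637 in Sham, and to 3934, 2581, 2629 and 2558 CPM in B cells. Most of that gap lay in the antiproliferative gene Btg1, named after its values were seen, with 1162 CPM in T cells of SCI, 457 in MSC-i.t, 467 in MSC-i.v and 454 in Sham. Klf2, a factor of lymphocyte quiescence, had a log2 ratio of 3.61 and Rb1, the retinoblastoma repressor, of 1.86 for SCI over Sham in T cells, where 4 of 19 brakes and 7.93% of all genes were past 2-fold. Cdkn2c, an inhibitor of Cdk4 and Cdk6, was lower in SCI at -0.73, and Rbbp4, a chromatin subunit of the DREAM complex, was at -0.19. In B cells Klf2 was at 2.91 and Rb1 at 1.66, and in NK cells Btg1 led at 1.17. Drivers upstream of mitosis (D cyclins, their kinases, Myc and others) summed to 568 CPM in NK cells of SCI, 470 in MSC-i.t, 444 in MSC-i.v and 364 in Sham, with Ccnd2, cyclin D2, at 0.87 for SCI over Sham. In T cells they summed to 266 to 298 CPM.

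Outside the 10 members and the cell type markers, the genes whose levels were most like the summed level of the 10 members over 20 profiles (5 classes in 4 libraries, log2 of CPM plus 1, 7077 genes) were Tcf19 (Pearson r = 0.92), Bola3 (0.91) and Tnk2 (0.90), followed by Slc1a5 and Ccnd2. For the 9 genes without Stmn1 they were Pip5k1b (0.81), Haus4 (0.80), a subunit of the augmin complex of the spindle, and Birc5 (0.78), the chromosomal passenger survivin. For Ube2c they were Cenpw (0.92), Bcas2 (0.91) and Pttg1 (0.89), the securin gene, with Pttg1 at a mean of 71.3 CPM in erythroid cells, 16.4 CPM in NK cells and 4.84 CPM in T cells. Profiles of 1 library share cells and depth, classes differ in many genes at once, and these values describe likeness over the classes only.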

How the data were processed

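Blood of 4 groups of rats was profiled by single-cell RNA-seq, with 1 library per group. The authors deposited unfiltered UMI counts per gene and barcode (6794880 barcodes listed), made with Cell Ranger 4 per the file headers; the submitters' processing notes name the genome build mRatBN 7.2. The labels' extraction protocol describes an mRNA library preparation and not the capture of cells. No deposited cell annotation was used.

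Barcodes with at least 500 UMIs and 200 genes were kept (81.2% to 87.4% of each library's UMIs). Classes were gated on UMIs of marker genes: at least 2 for T cells, 3 for NK, B, precursor B, monocyte and platelet classes, at most 1 UMI of the T, NK, B and monocyte gate genes of other classes (NK genes were not limited in T cells, nor B genes in precursor B cells), at most 5% hemoglobin UMIs for leukocytes and at least 20% for erythroid cells. Barcodes that met no gate were left out, and no further doublets were removed. Counts were summed per class and library and given as CPM. Shares carry exact Clopper-Pearson intervals, CPM exact Poisson intervals and ratios exact conditional binomial intervals (95%). A gene was counted as past 2-fold if it had at least 20 UMIs in the pair of libraries. No p-value between groups was computed. Classes were compared over the 4 libraries by an exact two-sided sign-flip permutation test. Genes of the other lists were named as the 2 highest and 2 lowest ratios among those with at least 50 UMIs in 1 library of the pair, and genes like the members by Pearson r among genes with a mean of at least 5 CPM. On simulated counts for SCI over Sham, 100% of genes changed 4-fold were past 2-fold in T, NK and B cells, with 0.670% of unchanged genes in T cells, 3.35% in NK cells and 1.55% in B cells. Of genes changed 1.5-fold, 4% were past 2-fold in T cells, 9% in NK cells and 5% in B cells. The simulated UMIs were independent, and changed genes had at least 50 UMIs in the pair of libraries. UMIs gathered in few cells were not simulated, so these rates do not carry over to the members. The members and lists were chosen with earlier results of these data known, and gates, subsets of T and B cells and some alternatives after the data were seen. Alternatives were other floors and gates, thinning, other denominators, doublet scores (Scrublet in scanpy 1.11.5) and other member sets. Tools were Python 3.11.15, numpy 2.4.6, scipy 1.17.1, pandas 2.3.3 and matplotlib 3.10.9.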

Additional observations from a re-analysis of the deposited data

How the results depend on the processing

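No paired analysis between groups was possible because each group has 1 library. Each group being 1 library, differences between libraries carry no replicate error, and the unmatched time tag of the SCI library touches every ratio that uses it. NK results rest on 145 to 279 cells per library and on few cells among these. Of the alternatives, a floor of 1000 UMIs, gates set 1 UMI higher, a mitochondrial limit of 20%, removal of the highest doublet scores and removal of barcodes found in more than 1 library each left all 24 ratios of the summed member level within their counting intervals; the removal of shared barcodes and of the top cell, the precursor B rule alone and the set without Stmn1 and Ube2c were chosen after seeing the data. All values that follow are log2 ratios of the summed level unless a share is named, and the cause of each shift was not tested. With Sham as the reference, MSC-i.t was at 0.45 in NK, -0.10 in T, -0.088 in B and -0.012 in erythroid cells, and MSC-i.v at 0.45 in NK, -0.030 in T and -0.12 in B cells. In cells with no UMI of other classes, SCI over Sham was 0.39 in NK, 0.058 in T and 0.46 in B cells; MSC-i.t over SCI was -0.23 in NK cells, -0.89 in B cells and -0.062 in monocytes; MSC-i.v over SCI was -0.32 in NK, -0.032 in T and -0.96 in B cells; and MSC-i.t over MSC-i.v was 0.048 in T cells and -0.16 in monocytes. Thinned to 1000 UMIs, SCI over Sham was 0.78 in NK and 0.16 in erythroid cells, MSC-i.t over SCI -0.65 in B and -0.11 in erythroid cells, MSC-i.v over SCI -0.82 in NK and -0.61 in B cells, MSC-i.t over MSC-i.v 0.015 in T cells, and the share of T cells for MSC-i.v over SCI 0.22. Thinned to 2000 UMIs, SCI over Sham was 0.056 in B cells, MSC-i.t over SCI 0.048 in T cells, MSC-i.v over SCI -0.14 in B cells, MSC-i.t over MSC-i.v 0.034 in T and -0.20 in B cells, the share of T cells for MSC-i.v over SCI 0.47 and the share of erythroid cells for MSC-i.t over MSC-i.v -0.75. A minimum of 3 members put that T cell share at 0.051. Without Stmn1, SCI over Sham was 0.72 in NK, 0.23 in T and 0.63 in B cells; MSC-i.t over SCI was -0.42 in T cells; MSC-i.v over SCI was 0.34 in NK and -0.66 in B cells; MSC-i.t over MSC-i.v was -0.70 in NK and -0.42 in T cells; and NK over T was 2.09, T over erythroid -0.89 and B over erythroid -0.13. Without Stmn1 and Ube2c, SCI over Sham was 0.77 in NK, 0.23 in T, 0.62 in B and 0.054 in erythroid cells; MSC-i.t over SCI was -0.44 in T and -0.095 in erythroid cells; MSC-i.v over SCI was 0.10 in NK, -0.041 in T, -0.74 in B and -0.037 in erythroid cells; MSC-i.t over MSC-i.v was -0.53 in NK, -0.40 in T and 0.22 in B cells; and NK over T was 2.15. Without the top cell of each class and library, 2 of 24 ratios moved, both in monocytes: MSC-i.t over SCI to 0.85 and MSC-i.t over MSC-i.v to 0.39. B over erythroid cells was -0.15 with hemoglobin left out of the total and -0.74 as member UMIs per cell. Counts of members past 2-fold changed with the minimum of UMIs: at 50 UMIs MSC-i.t over SCI had 0 of 3 in NK cells and MSC-i.t over MSC-i.v 2 of 4.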

Other observations

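Barcodes outside every class also held mitotic genes. At least 2 of the 10 were found in 43 of 858 ungated barcodes in SCI (5.01%), 95 of 1184 in MSC-i.t (8.02%), 146 of 2107 in MSC-i.v (6.93%) and 110 of 1399 in Sham (7.86%). Of these, 36 in SCI, 84 in MSC-i.t, 132 in MSC-i.v and 92 in Sham carried markers of more than 1 class, so they could not be given to a class. Such mixed markers were common in ungated barcodes at large: 415 of 858 in SCI, 839 of 1184 in MSC-i.t, 1615 of 2107 in MSC-i.v and 1055 of 1399 in Sham. Ungated barcodes enter no value of NK, T or B cells.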
